A study of Rattus norvegicus with 18 samples.

Results

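The 100 most abundant transcripts of the undosed rat liver were followed through 18 livers at 3 doses of vitamin D. They were the 100 Ensembl gene IDs, of 30560 counted, with the highest median level in the 6 undosed libraries, after 11 IDs had been set aside. Level is given as CPM, a gene's reads per 1000000 reads assigned to genes in the same library. Of the 11 IDs set aside, 5 would otherwise have stood among the first 100 of all genes, at ranks 19, 42, 43, 45 and 73. Around the limit of the choice, the undosed medians were 890 CPM for ENSRNOG00000019491, 888 CPM for ENSRNOG00000003430 and 883 CPM for ENSRNOG00000029971 at ranks 98 to 100. Just outside it stood ENSRNOG00000046889 at 859 CPM, ENSRNOG00000018339 at 856 CPM and ENSRNOG00000009788 at 851 CPM. The undosed level chose the transcripts, so it is given as a description, as are comparisons with undosed rats.

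Liver RNA came from female rats about 1 year old that had received vitamin D at 0, 1000 or 5000 U/kg for 3 months, with 6 rats per dose. Neither the strain nor what the kg of a dose refers to (animal or diet) is in the labels, and they name no other treatment or genotype. Libraries were built from the 3' ends of polyadenylated RNA, so counts depend little on gene length. Levels of different genes can be set side by side only roughly, since reads aligned at more than 1 place or in more than 1 gene were left unassigned. The libraries held 6787033 to 12555457 gene counts.

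The liver is known for a transcript pool dominated by few genes. Hepatocytes, its main cells, make most plasma proteins, among them albumin, apolipoproteins, clotting factors and protease inhibitors, along with the enzymes of metabolism and detoxification, and polyadenylated mitochondrial transcripts are also abundant in this tissue. The liver also converts vitamin D to its main circulating form. Where few genes hold most reads, more reads of one transcript lower the share of all others even if their amounts stay the same.

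The files list genes by ID only. A RefSeq table of 47357 rat genes was used to look for symbols, but 0 of its entries had an Ensembl ID, and 0 of the 100 transcripts were matched. Each is therefore given by its ID without a role, and neither the tissue nor other cell types were checked by markers. In bulk RNA, fewer cells of a type and less RNA per cell cannot be told apart.

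A pair of libraries stood apart in these transcripts: the undosed replicate 2 and replicate 5 at 1000 U/kg. Of the 100 transcripts, 50 were among the 100 most abundant genes of the undosed replicate 2, set-aside IDs left out, and 52 among those of replicate 5 at 1000 U/kg. Replicate 2 at 5000 U/kg followed with 74, and the other 15 libraries held 83 to 95. The rank order of the 100 levels showed the same libraries. Its Spearman correlation with the median of the other libraries was 0.508 in the undosed replicate 2, 0.774 in replicate 5 at 1000 U/kg and 0.770 in replicate 2 at 5000 U/kg, against 0.854 to 0.970 in the rest. Results are given below with all libraries and without the pair, which was known from earlier results of these data. Reads in no gene made up 11.8% of the file total in the undosed replicate 2, the highest of all libraries, and 7.34% in replicate 5 at 1000 U/kg, the lowest, with 7.76% to 10.7% in the rest. Reads aligned at more than 1 place made up 14.1% in replicate 5 at 1000 U/kg and 8.45% to 12.9% in the other 17 libraries. The part of these shares, or of RNA from other cells, in the results was not tested.

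The 100 transcripts together held more than 50% of all gene counts in every liver. Their summed share was 57.0% ± 3.60 at 0 U/kg, 58.7% ± 1.30 at 1000 U/kg and 57.3% ± 2.39 at 5000 U/kg (SD, n = 6 each). In undosed rats it ran from 50.3% through a median of 57.8% to 60.8%. At 1000 U/kg it ran from 56.5% through 59.1% to 59.8%, and at 5000 U/kg from 52.7% through 57.8% to 59.8%. The ranges overlapped at all doses, and no pair of means differed by more than 1 SD of the more variable group. The lowest shares belonged to the undosed replicate 2 (50.3%, 95% exact Clopper-Pearson interval 50.26 to 50.32) and to replicate 5 at 5000 U/kg (52.7%, interval 52.67 to 52.74). Intervals of this kind cover counting error only, which is far smaller here than the differences between rats. Without the pair the mean share was 58.3% ± 1.68 at 0 U/kg and 58.5% ± 1.32 at 1000 U/kg (SD, n = 5 each). The difference between 5000 and 0 U/kg was 0.320 percentage points with all libraries and −1.01 without the pair. It was −0.182 without replicate 1 at 5000 U/kg alone and −1.56 with TMM-scaled library sizes (scaling by the trimmed mean of M values), so its sign was not stable.

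**Figure D1:**
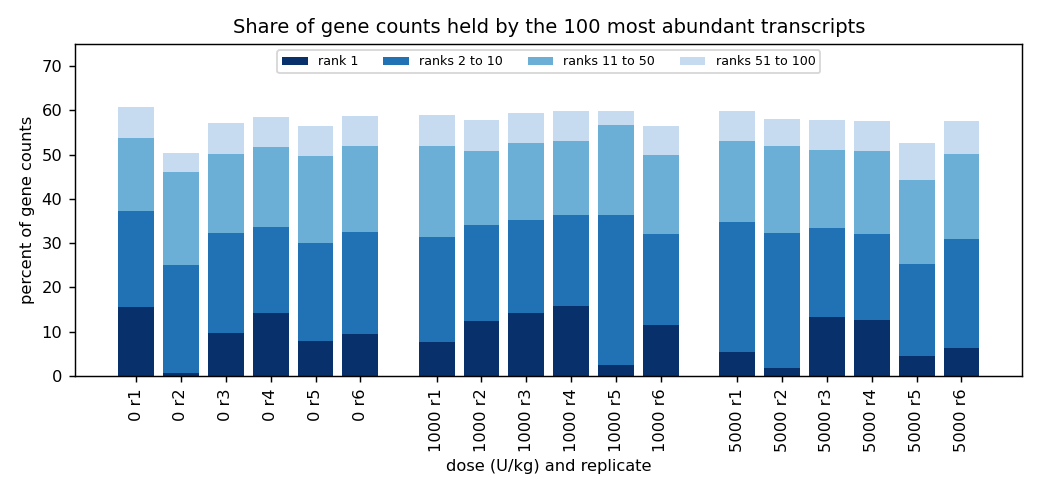
Percent of gene counts (vertical axis) held by the 100 transcripts in each of 18 liver libraries, ordered by dose in U/kg and replicate (r) and stacked by undosed rank. The bars reach 50.3% to 60.8%, while the darkest segment, the transcript of rank 1, takes between 0.665% and 15.8%.

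The share was also summed by rank. The first 10 ranks held 31.7% ± 4.05 of gene counts at 0 U/kg, 34.3% ± 2.11 at 1000 U/kg and 31.4% ± 3.32 at 5000 U/kg. Ranks 11 to 50 held 18.9% ± 1.59, 18.3% ± 1.73 and 18.8% ± 0.668, and ranks 51 to 100 held 6.39% ± 1.08, 6.19% ± 1.50 and 7.07% ± 0.770, in the same order of doses (SD, n = 6 each). Without the pair, ranks 51 to 100 held 6.83% ± 0.190 at 0 U/kg and 6.80% ± 0.144 at 1000 U/kg (SD, n = 5 each). In each of these bands, too, the means differed by less than 1 SD of the more variable group. The number of genes needed to reach 50% of gene counts, counted from the most abundant of all genes, ran from 32 to 49 in undosed rats, from 15 to 48 at 1000 U/kg and from 34 to 67 at 5000 U/kg. The most concentrated liver, with 15 genes, was replicate 5 at 1000 U/kg, and the least, with 67, was replicate 5 at 5000 U/kg.

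Single transcripts spanned 2 orders of magnitude in level. ENSRNOG00000002911, at rank 1, had an undosed median of 95637 CPM, or 9.56% of gene counts. Its level ran from 6652 through 95637 to 156577 CPM in undosed rats, from 25520 through 119515 to 158258 CPM at 1000 U/kg and from 18087 through 58472 to 131915 CPM at 5000 U/kg (lowest, median and highest of 6). All 3 ranges overlapped, and each dose had a lowest liver with less than 50% of the next: the undosed replicate 2, replicate 5 at 1000 U/kg and replicate 2 at 5000 U/kg. As a share, this transcript held 9.58% ± 5.29 of gene counts at 0 U/kg, 10.7% ± 4.87 at 1000 U/kg and 7.28% ± 4.58 at 5000 U/kg (SD, n = 6 each). It was among the 100 most abundant genes of all 18 livers.

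The next ranks lay close together. ENSRNOG00000031979 ran from 29866 through 42455 to 49517 CPM in undosed rats, from 35852 through 39149 to 84354 CPM at 1000 U/kg and from 34908 through 44100.2 to 59083 CPM at 5000 U/kg. Its highest value, in replicate 5 at 1000 U/kg, lay far above the rest, and the groups otherwise overlapped. ENSRNOG00000043866 had undosed values of 16481 to 54563 CPM around a median of 31062 CPM, and it reached 104821 CPM in the same library of 1000 U/kg. ENSRNOG00000018454 went the other way: it stood lowest in that library, at 7745 CPM, and highest, at 75142 CPM, in replicate 2 at 5000 U/kg, around an undosed median of 29481 CPM. ENSRNOG00000029707 held 27951 CPM in the undosed median and ranged from 14238 CPM in replicate 6 at 1000 U/kg to 47092 CPM in replicate 1 at 5000 U/kg.

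Ranks 6 to 10 repeated both patterns. ENSRNOG00000030625 (undosed median 25685 CPM) and ENSRNOG00000047503 (19707 CPM) were both lowest in replicate 5 at 1000 U/kg, at 7737 and 7724 CPM. ENSRNOG00000030700 (16821 CPM) and ENSRNOG00000030644 (13121 CPM) were both highest there, at 58868 and 29043 CPM. ENSRNOG00000030644 and ENSRNOG00000000053 (13114 CPM) were lowest in the undosed replicate 2, at 2759 and 741 CPM. Among the first 10, the undosed ranges of neighbouring ranks 2 to 10 overlapped, so their order within a single liver was not fixed.

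**Figure D2:**
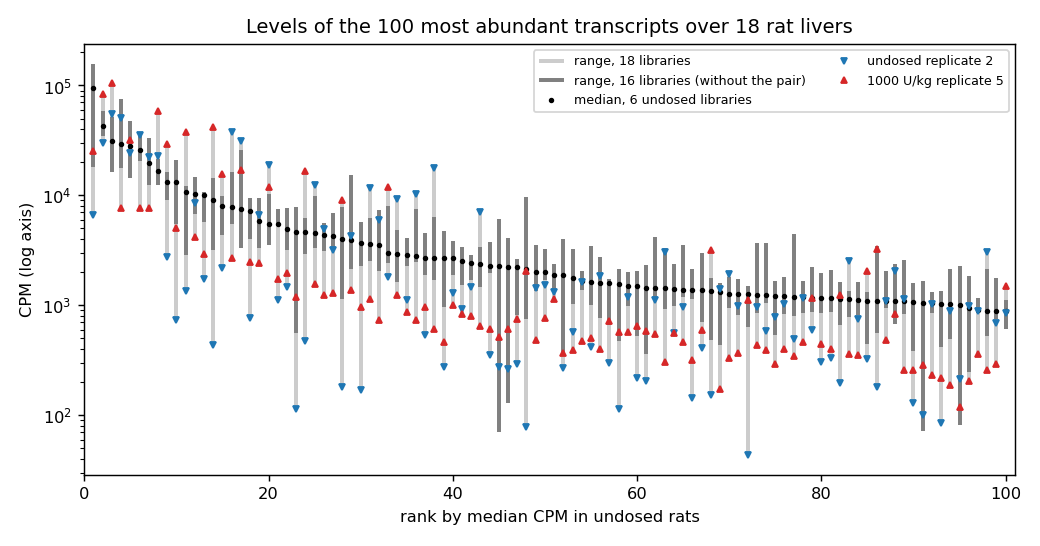
CPM (log axis) of the 100 transcripts by rank of undosed median (black points), with the range over 18 libraries in light grey and over the 16 libraries without the pair in dark grey. The undosed replicate 2 (blue) and replicate 5 at 1000 U/kg (red) mark many ends of the light ranges; the median fold between the highest and the lowest library is 8.13 with them and 2.94 without.

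The identity of the most abundant transcripts was nevertheless shared between doses. Of the 100, 96 were also among the 100 genes of highest median at 1000 U/kg and 92 among those at 5000 U/kg. In single livers the overlap was smaller: 33 stood among the first 100 of every library, and 58 did so in the 16 libraries without the pair. The ratio of the highest to the lowest library had a median of 8.13 over the 100 transcripts, from 2.11 to 124. Without the pair it had a median of 2.94, from 1.37 to 85.3, and 20 transcripts then varied less than 2-fold over 16 livers. The pair held the lowest value of 89 transcripts and the highest of 25, and at least one end of the range of 94.

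The coefficient of variation (CV, the SD divided by the mean, within a dose and pooled over the 3 doses) described how much rats of the same dose differed. Its median over the 100 transcripts was 0.381 (0.173 to 0.977), beside 0.437 over the 11268 genes tested. Without the pair it was 0.250 beside 0.331. By dose, the median CV of the 100 was 0.409 at 0 U/kg, 0.395 at 1000 U/kg and 0.303 at 5000 U/kg with all libraries. Without the pair these values were 0.207, 0.231 and 0.303, so the order of the doses turned. The pair holds no library of 5000 U/kg, so only the values at 0 and 1000 U/kg could change. Over all genes tested the medians were 0.475, 0.368 and 0.340 with all libraries, and 0.299, 0.282 and 0.340 without the pair. A CV over 0.5 was found for 28 of the 100 transcripts and for 40.4% of all genes tested, and without the pair for 7 and for 21.9%. The lower spread of the abundant transcripts depended on the measure: by the SD of log2 CPM their median was 1.46 times that of all genes, and by the CV 0.873 times. The CV includes counting error, which weighs more in genes of few counts, and its part in the lower CV was not tested. By the square root of edgeR's dispersion, which models counting error apart, the medians lay close together, at 0.441 and 0.456.

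Among the 8 transcripts of largest CV, 3 had a CV under 0.5 without the pair. For ENSRNOG00000001806 (CV 0.977), the undosed replicate 2 held 17926 CPM, while the other undosed rats held 1684 to 3512 CPM. Its CV without the pair was 0.352. ENSRNOG00000006889 (CV 0.815) likewise stood at 37329 CPM in that library, around an undosed median of 7867 CPM, and its CV was 0.343 without the pair. For ENSRNOG00000030371 (CV 0.770) both libraries of the pair lay outside all others, at 432 CPM in the undosed replicate 2 and at 41707 CPM in replicate 5 at 1000 U/kg. The other 16 livers held 3160 to 14311 CPM, and the CV without the pair was 0.272.

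The other 5 kept most of their spread without the pair. ENSRNOG00000067602 had a CV of 0.800 with and 0.753 without it. Its level ran from 77.5 through 2116 to 5920 CPM in undosed rats, from 1231 through 2016 to 6457 CPM at 1000 U/kg and from 1320 through 3297 to 9591 CPM at 5000 U/kg. High and low livers occurred at every dose, and the groups overlapped. ENSRNOG00000021405 (CV 0.744, and 0.623 without the pair) ran from 70.9 CPM in replicate 2 at 5000 U/kg to 6053 CPM in the undosed replicate 4, a ratio of 85.3. ENSRNOG00000047945 (CV 0.722 and 0.595) was lowest in the same library of 5000 U/kg, at 81.8 CPM, and highest at 2258 CPM in replicate 4 at 1000 U/kg. ENSRNOG00000029886 (CV 0.761 and 0.660) ran from 3301 CPM in the undosed replicate 1 to 31038 CPM in the undosed replicate 2. ENSRNOG00000065935 (CV 0.723 and 0.714) reached 15202 CPM in replicate 5 at 5000 U/kg, where the next liver of that dose held 6204 CPM.

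At the other end, 5 transcripts had a CV of 0.214 or less. ENSRNOG00000011413 had the smallest, 0.173 with all libraries and 0.0901 without the pair. It ran from 848 through 913 to 1076 CPM in undosed rats, from 359 through 914 to 1041 CPM at 1000 U/kg and from 913 through 1014 to 1165 CPM at 5000 U/kg. Apart from replicate 5 at 1000 U/kg, every liver lay within 1.37-fold of every other, the undosed replicate 2 included. ENSRNOG00000004405 (CV 0.199) was likewise low in that library alone, at 469 CPM, and lay between 1369 and 2046 CPM in the rest. The others were ENSRNOG00000029707 (0.212), ENSRNOG00000029971 (0.213) and ENSRNOG00000010633 (0.214).

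**Figure D3:**
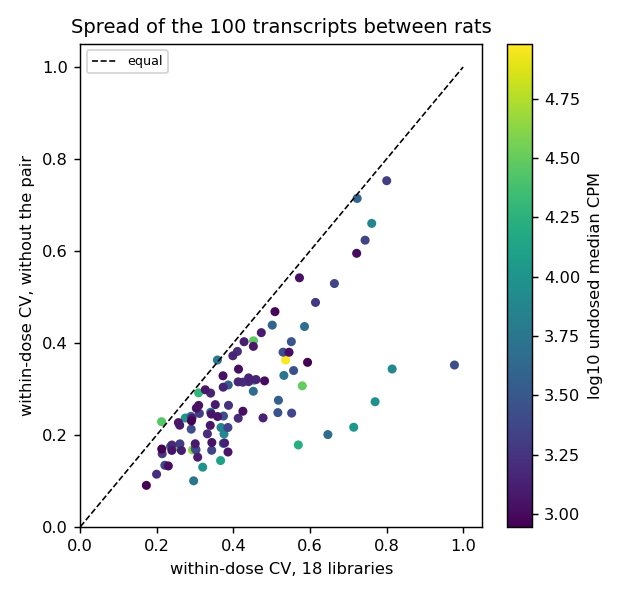
Within-dose CV of each of the 100 transcripts with 18 libraries (horizontal axis) and without the undosed replicate 2 and replicate 5 at 1000 U/kg (vertical axis), coloured by log10 of the undosed median CPM. Most points lie below the dashed line of equal values; the median is 0.381 with 18 libraries and 0.250 without the pair.

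The libraries that stood apart differed in which transcripts were high and low. In replicate 5 at 1000 U/kg, 13 of the 100 transcripts were at their highest of all 18 libraries and held 41.7% of gene counts together. The same 13 held 14.0% to 14.8% in the other rats of that dose and 11.8% to 16.0% in all other livers. Its 50 lowest transcripts held 5.88% there and 15.5% to 29.2% elsewhere. These sets were picked by their extremes, so the gaps are a description.

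In the undosed replicate 2, 12 transcripts were at their highest and held 16.4%, against 3.51% to 8.71% in the other livers. The 39 at their lowest held 5.78% there and 16.3% to 33.3% elsewhere. Of the transcripts lowest in the undosed replicate 2, 10 were highest in replicate 5 at 1000 U/kg, ENSRNOG00000030371 among them. Another 10 were highest in the undosed replicate 2 and lowest in replicate 5 at 1000 U/kg, ENSRNOG00000001806 among them. Against the median of the other 17 libraries, 46 transcripts were over 2-fold lower and 12 over 2-fold higher in the undosed replicate 2. In replicate 5 at 1000 U/kg, 76 were over 2-fold lower and 15 over 2-fold higher.

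In both libraries other genes took places among the first 100. In the undosed replicate 2 these 50 genes held 8.71% of gene counts, beside a median of 2.03% in the other 17 libraries. The most abundant was ENSRNOG00000034254, at 4595 CPM there and 389 to 2360 CPM elsewhere. In replicate 5 at 1000 U/kg the 48 genes held 8.26%, beside a median of 1.06%. Their most abundant, ENSRNOG00000008536, held 5228 CPM there and 0 to 10.1 CPM in the other 17 livers.

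The livers at 5000 U/kg had their own extremes. In replicate 5 at that dose, 18 of the 100 transcripts were at their highest and held 9.49%, against 1.62% to 6.15% elsewhere. In replicate 2, 9 were at their highest, with 13.7% against 2.09% to 10.3% elsewhere, and 4 were at their lowest. Those 4 were ENSRNOG00000021405, ENSRNOG00000045799, ENSRNOG00000037549 and ENSRNOG00000047945, which held 0.0354% together there and 0.0850% to 1.33% elsewhere.

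**Figure D4:**
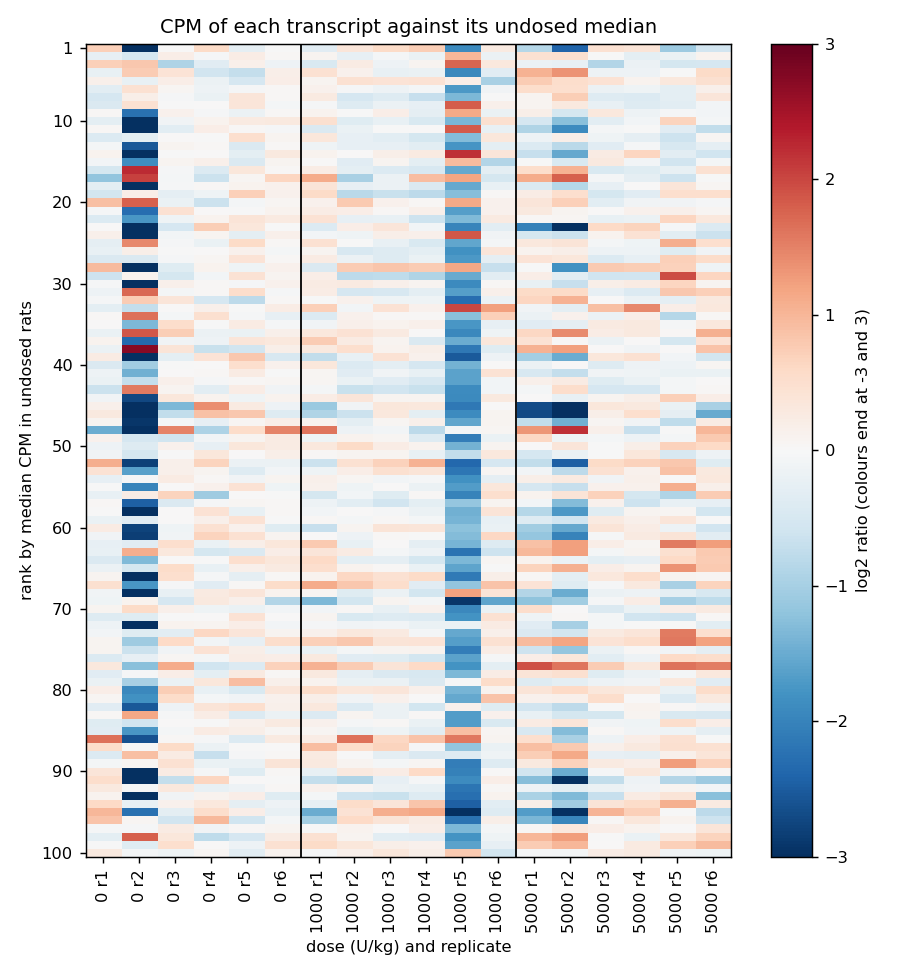
Log2 ratio of CPM in each library (columns, by dose in U/kg and replicate) to the undosed median of the same transcript (rows, by rank), with colours ending at −3 and 3. The columns of the undosed replicate 2 and of replicate 5 at 1000 U/kg stand out, with median log2 ratios to the other libraries of −0.67 and −1.57; the lines divide the doses.

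Shared variation among the 100 transcripts was described without a value for other genes beside it. Levels were centred but not scaled for the components, so transcripts of large variance weigh most in them. On log2 levels, the first 3 principal components held 50.5%, 24.2% and 13.1% of their variance over 18 libraries, and 61.9%, 11.6% and 8.74% over the 16 without the pair. Over the 4950 pairs of transcripts, the median Pearson's r was 0.33 with all libraries and 0.034 without the pair. All transcripts of a library share its depth and its total, so these values only describe the libraries.

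The comparison of 5000 with 1000 U/kg asked whether the higher dose differs from the lower. Neither of these groups was used to choose the transcripts. The scaling and the estimate of spread came from all 18 libraries, however, so the p-values also depend on the undosed ones. None of the 100 transcripts passed. At a Benjamini-Hochberg adjusted p under 0.05, 0 of 100 were called by edgeR's quasi-likelihood test or by limma voom, and 0 of the 98 to which DESeq2 gave a p. The smallest adjusted p among them was 0.652 (edgeR). All 100 were among the 11268 genes tested, of which 0% were called. Without adjustment, edgeR gave a p under 0.05 to 11 of the 100, with 9 higher and 2 lower at 5000 U/kg, beside 5.86% of all genes tested. DESeq2 gave such a p to 15, beside 5.92% of the genes it tested, and limma voom to 30, beside 20.2%. Over all genes, 1.89% were higher and 3.97% lower at that p. The median log2 fold change was 0.11 over the 100 and −0.040 over all genes, and 61 of the 100 had a positive value, beside 46.1% of all genes. Without the pair edgeR gave 9 transcripts at an unadjusted p under 0.05, all higher at 5000 U/kg, beside 5.37% of all genes (3.67% higher), the median was 0.0057, and 51 of the 100 were above 0. The count was 4 (1.68% of all genes) when replicate 5 at 1000 U/kg alone was left out, and 21 (10.8%) when the undosed replicate 2 was. Leaving out replicate 1 at 1000 U/kg gave 20 (8.8%). At 5000 U/kg, leaving out replicate 1 gave 5 (3.87%), replicate 2 gave 6 (3.59%), replicate 6 gave 6 (3.78%) and replicate 5 gave 7 (5.12%). The groups overlapped for each of the 100, while 0.177% of all genes showed no overlap, and likewise without the pair (0.284%).

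For the transcripts of smallest p, levels are given after TMM scaling, as in the test. ENSRNOG00000029949 ran from 635 through 1162 to 2526 CPM at 1000 U/kg and from 1462 through 3075 to 3703 CPM at 5000 U/kg, and the undosed rats held 1252 to 1966 CPM. At 5000 U/kg, 4 livers stood above every liver of 1000 U/kg and the other 2 lay among them. With edgeR the difference was 1.04 on the log2 scale (SE 0.31, adjusted p = 0.652) and 0.89 without the pair. ENSRNOG00000055531 ran from 537 through 1328 to 1991 CPM and from 1431 through 2357 to 3122 CPM at the same doses, again with 4 livers above and 2 within, and a log2 difference of 0.82 (SE 0.28, adjusted p with edgeR 0.710).

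On the lower side, 1 library weighed most. ENSRNOG00000043866, at rank 3, ran from 23118 through 33550 to 122072 CPM at 1000 U/kg and from 16426 through 24403 to 28374 CPM at 5000 U/kg. Its log2 difference of −0.98 (SE 0.40, adjusted p with edgeR 0.815) became −0.40 without the pair. The value of 122072 CPM belonged to replicate 5, and the other livers of that dose held at most 35029 CPM. ENSRNOG00000031766, at rank 11, differed by −1.07 on the log2 scale (SE 0.49, adjusted p with edgeR 0.815) and by −0.38 without the pair. Its highest value was also that of replicate 5, 44017 CPM beside a median of 9590 CPM. The transcript of rank 1, ENSRNOG00000002911, differed by −0.56 on that scale (SE 0.56, adjusted p with edgeR 0.860). Without the pair this value was −0.76 (SE 0.38), and it was not called either.

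**Figure D5:**
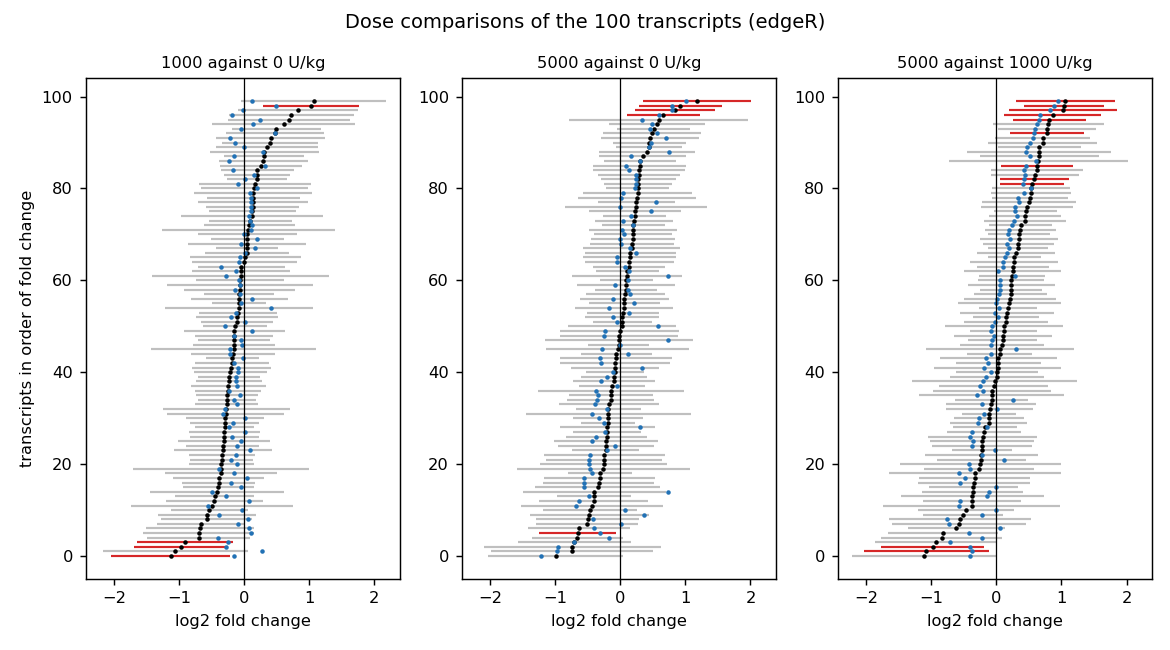
Log2 fold changes (horizontal axis, black points) of the 100 transcripts in 3 dose comparisons, each panel in order of its own values, with lines of the approximate 95% interval (edgeR). Red lines mark an unadjusted p under 0.05 (4, 5 and 11 transcripts from left to right) and blue points the fit without the pair; no transcript passed the adjusted threshold.

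The comparisons with undosed rats share the 6 libraries that chose the transcripts and are given as descriptions. Between 1000 and 0 U/kg, 0 were called by edgeR, DESeq2 or limma voom, and the smallest edgeR adjusted p was 0.644. An unadjusted p under 0.05 was given to 4 by edgeR, 1 higher (3.09% of all genes) and 3 lower (4.36%), beside 7.45% of all genes. DESeq2 gave it to 7, beside 6.93%, and limma voom to 5, beside 9.02%. The median log2 fold change was −0.14, beside −0.0046 over all genes, and 36 of 100 were above 0, beside 49.6%. Without the pair 0 of 100 had such a p with edgeR, beside 1.99% of all genes, and the median was −0.068. Leaving out the undosed replicate 2 alone gave 1 transcript (4.67% of all genes), and dropping replicate 5 at 1000 U/kg gave 2 (4.21%). Without replicate 1 at 1000 U/kg there were 7 (8.5%). The transcript of smallest p on the higher side, ENSRNOG00000034234, had 2872 ± 547 CPM at 0 and 5839 ± 4130 CPM at 1000 U/kg (SD, n = 6 each), where replicate 5 held 13837 CPM. The log2 difference was 1.02 (SE 0.38, adjusted p with edgeR 0.644), and 0.49 without the pair. On the lower side, ENSRNOG00000001338 had 3120 ± 2355 and 1599 ± 545 CPM, and the undosed replicate 2 held 7864 CPM. Its log2 difference of −0.96 (SE 0.37, adjusted p with edgeR 0.644) was −0.29 without the pair.

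Between 5000 and 0 U/kg, 0 of 100 were called by these tools, and the smallest edgeR adjusted p was 0.99996. An unadjusted p under 0.05 was given to 5 by edgeR, 4 higher (1.27% of all genes) and 1 lower (2.28%), beside 3.55% of all genes. DESeq2 gave it to 5, beside 4.27%, and limma voom to 13, beside 8.25%. The median log2 fold change was 0.0091, beside −0.080 over all genes, and 50 of 100 were above 0, beside 40.9%. Leaving out 1 library gave 3 such transcripts for the undosed replicate 1 (4.2% of all genes), the undosed replicate 4 (4.02%), and replicates 2 (3.07%) and 5 (2.71%) at 5000 U/kg. Without the pair, 19 had such a p, 11 higher (5.68% of all genes) and 8 lower (3.29%), beside 8.97% in all, and 0 were called (smallest edgeR adjusted p = 0.550). ENSRNOG00000007457 had 1299 ± 438 CPM at 0 and 2464 ± 669 CPM at 5000 U/kg (SD, n = 6 each), with 1557 ± 581 CPM at 1000 U/kg. The log2 difference was 0.92 (SE 0.33, adjusted p with edgeR 0.99996), and 0.79 without the pair. ENSRNOG00000057367 had 1398 ± 741 and 890 ± 173 CPM, a log2 difference of −0.65 (SE 0.30, adjusted p with edgeR 0.99996) that was −0.31 without the pair. With all libraries, the groups overlapped for each of the 100 transcripts in both comparisons with undosed rats, while 0.0976% and 0.142% of all genes showed no overlap. Without the pair, 1000 and 0 U/kg still overlapped for each of the 100 (0.319% of all genes did not). Between 5000 and 0 U/kg, 1 transcript did not overlap, beside 0.444% of all genes. It was ENSRNOG00000007743, named after its values were seen, with 1573 to 2296 CPM after TMM scaling at 5000 U/kg and 2323 to 2871 CPM in the 5 undosed rats.

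The joint test over the 3 doses called 0 of 100 with edgeR, DESeq2 and limma voom (smallest edgeR adjusted p = 0.614). It gave an unadjusted p under 0.05 to 7 transcripts with edgeR, beside 5.59% of all genes, to 11 with DESeq2, beside 5.61%, and to 21 with limma voom, beside 14.0%. Without the pair edgeR gave 10, beside 4.94%. Single libraries moved this count as well: it was 12 without the undosed replicate 2 (7.31% of all genes) and 14 without replicate 1 at 1000 U/kg (6.8%). It was 4 without replicate 6 at that dose (5.38%), and 3 without replicate 5 (4.82%) or replicate 6 (4.2%) at 5000 U/kg. Each of the 100 transcripts had at least 440 counts in every library, so counting error was small beside the spread between rats. An approximate 95% interval of the fold change stayed inside 2-fold for 58 of 100 transcripts in each comparison with undosed rats. Between 5000 and 1000 U/kg it did so for 47. Over all genes tested, the shares were 45.5% (1000 against 0 U/kg), 47.6% (5000 against 0) and 44.9% (5000 against 1000). Without the pair the counts were 87, 69 and 75, beside 66.31%, 60.01% and 62.25% of all genes in the same order. Each interval was taken singly, without adjustment for the number of transcripts. For the remaining transcripts even these intervals did not exclude a 2-fold difference, and the absence of calls does not show that their levels were alike.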

How the data were processed

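Per the labels' protocols, RNA isolation used the Total RNA Mini kit, and the library kit was QuantSeq 3' mRNA-Seq (FWD). The authors deposited raw counts per gene, 1 file per library, and the tools named per the submitters' processing notes are FastQC, STAR, HTSeq and DESeq2. Their versions, the annotation, strandedness and genome build were not given in the sources used here. All files held 30560 gene IDs and 5 summary rows, which stayed out of library sizes and tests. These rows held 7.34% to 11.8% of a file's total as reads in no gene, 2.54% to 3.84% as reads in more than 1 gene and 8.45% to 14.1% as reads aligned at more than 1 place. Reads of near-identical copies were therefore left unassigned, and counts of paralogs, overlapping genes and antisense genes are uncertain. Within a dose, the 45 library pairs differed by more than counting noise (chi-square at least 15.2 per degree of freedom, genes with at least 20 counts in the pair). No library was thus a mere recount of another of its dose. The difference cannot show that each came from a different rat, which rests on the labels. Each library was taken as 1 replicate.

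CPM used the total gene count unless TMM is named. Tests used edgeR 4.0.16 in R 4.3.3 (filter by group, TMM, robust quasi-likelihood fit of 3 dose groups on 18 libraries), with Benjamini-Hochberg adjustment over the 11268 genes tested. DESeq2 1.42.0 and limma 3.58.1 (voom with sample weights) were alternatives, as were other scalings, no filter, the replicate number as a block and each library left out. DESeq2 gave a p to 98 of the 100 transcripts. No p-value was computed for sums over the 100 transcripts. Ratios to a median, components and correlations used log2(CPM + 1). The SD of log2 CPM used log2(CPM + 2), which by construction lowers the SD of genes of few CPM.

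The transcripts, the pair of libraries and the lists were chosen with earlier results of these data known. The IDs given are the first 10 by undosed median, the 8 of largest and 5 of smallest CV, the ranks around 100, and per comparison those of smallest edgeR p in each direction (2 each for 5000 against 1000 U/kg, otherwise 1 each). A longer rule had been planned, with more ranks and more transcripts of small p per comparison, and was shortened because the IDs had no symbols. Its gene lists by role and by cell type could not be applied without symbols. IDs given for single libraries were chosen after their values were seen. No sequences are shown, since none could be tied to these IDs.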

Additional observations from a re-analysis of the deposited data

Results flagged for a closer look

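Within each dose, a liver is listed here when it lay farther from its nearest neighbour, relative to the range of the 6 rats, than Dixon's 95% critical value allows. Of 99 groups of values examined, 27 held such a liver, where about 1 in 20 groups would by chance if values are independent and normal. The values share libraries, and some transcripts were picked for their spread, so the number is no test. The undosed replicate 2 accounted for 11 of them, replicate 5 at 1000 U/kg for 12, replicate 5 at 5000 U/kg for 2, and replicates 1 and 6 at 1000 U/kg for 1 each. Over all 100 transcripts, 64 of 300 groups in 52 transcripts held such a liver. No share over all genes tested stands beside this count, so it does not show that such livers are commoner in abundant transcripts.

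The undosed replicate 2 stood apart in the number of the 100 transcripts among its own first 100 (50, nearest 89) and in the rank correlation (0.508, nearest 0.862). It was low in ENSRNOG00000030644 (2759 CPM, nearest 11538), ENSRNOG00000000053 (741, nearest 10652), ENSRNOG00000030371 (432, nearest 7475) and ENSRNOG00000031766 (1343, nearest 8593). It was high in ENSRNOG00000001806 (17926 CPM, nearest 3512), ENSRNOG00000006889 (37329, nearest 10016) and ENSRNOG00000029886 (31038, nearest 11757). ENSRNOG00000001338 (7003 CPM, nearest 2746) and ENSRNOG00000057367 (2547, nearest 1340) were also high there.

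Replicate 5 at 1000 U/kg stood apart in the same measures (52 transcripts, nearest 90, and a rank correlation of 0.774, nearest 0.911). High transcripts there were ENSRNOG00000031979 (84354 CPM, nearest 45165), ENSRNOG00000043866 (104821, nearest 38477), ENSRNOG00000030700 (58868, nearest 18548) and ENSRNOG00000030644 (29043, nearest 15057). ENSRNOG00000030371 (41707 CPM, nearest 11694) and ENSRNOG00000031766 (37797, nearest 10624) were high as well. Low transcripts were ENSRNOG00000030625 (7737 CPM, nearest 22968), ENSRNOG00000011413 (359, nearest 872), ENSRNOG00000004405 (469, nearest 1369) and ENSRNOG00000007457 (391, nearest 1613).

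Among the other livers, replicate 5 at 5000 U/kg had a low summed share (52.7%, nearest 57.5%) and a high level of ENSRNOG00000065935 (15202 CPM, nearest 6204). Replicate 6 at 1000 U/kg was low in ENSRNOG00000029707 (14238 CPM, nearest 29568), and replicate 1 at that dose was high in ENSRNOG00000067602 (6457 CPM, nearest 2198).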

How the results depend on the processing

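The count of 0 called transcripts held in all 4 tests under the 25 alternatives run for each. None of the 8 fold changes given for the transcripts of smallest p changed sign. The fold change of the transcript of rank 1 was not part of this check. With all rows of the files in the denominator, the mean summed share at 0, 1000 and 5000 U/kg was 44.2%, 44.8% and 44.2%. It was 50.6%, 52.5% and 50.2% for the first 50 transcripts and 63.3%, 64.5% and 64.1% for the first 200. Its difference between 5000 and 0 U/kg ranged from −1.56 percentage points (TMM scaling) to 1.24 and has no stable sign. That between 1000 and 0 U/kg ranged from 0.197 (without the pair) to 2.51, and that between 5000 and 1000 U/kg from −2.74 to −0.366. Choosing by the median of all 18 libraries or by the undosed mean kept 96 and 95 of the 100 transcripts.

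The median CV of 0.381 was 0.250 without the pair and 0.317 to 0.397 with single libraries left out, lowest without the undosed replicate 2. As the square root of edgeR's dispersion, the median spread was 0.441, beside 0.456 over all genes tested. The ratio of the median CV to that of all genes, 0.873, was 0.757 without the pair and 0.820 to 0.908 with single libraries left out. By the SD of log2(CPM + 2) the ratio was 1.46. The added 2 lowers the SD of genes of few CPM, and its part in that ratio was not tested. Over the alternatives, the count of transcripts at an unadjusted p under 0.05 changed, as did the share of all genes tested. At the ends of each range below, the larger count went with the larger share, but this did not hold throughout. In the edgeR test of all doses the count was 10 (4.94%) without the pair and 4 (5.38%) without replicate 6 at 1000 U/kg. At 1000 against 0 U/kg it ran from 0 (1.99% of all genes) to 7 (6.93% and 8.5%). At 5000 against 0 U/kg it ran from 3 (2.71% to 4.2%) to 19 (8.97%). At 5000 against 1000 U/kg it ran from 4 (1.68%) to 30 (20.2%), and in the test of all doses from 3 (4.2% and 4.82%) to 21 (14.0%). With the replicate block, 0 were called. Of 18 pairs of libraries with the same number, the deviations from the dose means had a correlation above 0.1 in 10 and a negative one in 6. Libraries of different numbers were not compared in this way, so these values do not settle whether the numbers mark a pairing. A denominator without mitochondrially encoded genes was not run, for lack of gene names. Depth limits none of the 100 levels, while the spread between rats limits the fold changes.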
